A study of Mus musculus with 12 samples.

Results

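A set of 10 genes that encode core transcription factors of heart muscle was followed across mouse hearts: Gata4, Gata6, Nkx2-5, Tbx5, Tbx20, Mef2a, Mef2c, Mef2d, Hand2 and Irx4. They were picked by name, with no threshold on a measured value, although earlier results of these data were known at the time. Each was found once among the 52858 genes of the deposited FPKM tables. FPKM is a read count divided by gene length and scaled by library, so levels of different genes can be compared, given the length assigned to each. All 10 passed the filter on low values that left 15240 genes tested, through their level in every group.

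RNA was sequenced from 12 libraries, 3 hearts in each of 4 groups. C57BL/6J hearts and hearts of mice overexpressing Slit2 (Slit2-Tg) were taken from males 3 to 5 months old and perfused ex vivo. C57-IR and Slit2-IR hearts were made globally ischemic for 20 min after 20 min of stable perfusion, and were then reperfused for 40 min. C57-non-IR and Slit2-non-IR hearts were perfused for 80 min without ischemia, so an explanted, buffer-perfused state is shared by all 4 groups. The transgene is a human SLIT2 cDNA under the CMV promoter, which is not specific to a cell type, and it was injected into C57 × CBA F1 oocytes. Mouse Slit2 therefore does not check the genotype: its FPKM was 0.169 to 0.184 in Slit2-non-IR hearts and 0.180 to 0.222 in C57-non-IR hearts. After IR it was 0.0847 to 0.813 in Slit2-IR hearts and 0.213 to 0.282 in C57-IR hearts. The study itself reports higher Slit2 mRNA and protein in Slit2-Tg hearts. The labels state genotype, whereas IR status was inferred by matching the letters of the sample titles to the groups in the study's methods. No label says that same-numbered hearts were processed together.

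These factors form an interlinked network. GATA4 and GATA6 are zinc-finger proteins, NKX2-5 and IRX4 are homeodomain proteins, TBX5 and TBX20 are T-box proteins, the MEF2 proteins carry a MADS box, and HAND2 is a basic helix-loop-helix protein. They bind one another and the enhancers of sarcomere, ion channel and natriuretic peptide genes, and they act both in heart formation and in the adult myocardium, where GATA4 and the MEF2 proteins are also known as targets of stress signalling. Their protein level, nuclear location and DNA binding were not measured by RNA sequencing.

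The tissue was heart muscle by its defining transcripts. The 10 cardiomyocyte markers summed to between 10972 and 16872 FPKM in every library, and Myh6 alone averaged 3253. Each library held between 16601154 and 24841291 reads on genes, as recovered from the FPKM values. Slit2-IR replicate 1 stood apart by its atrial markers, which summed to 1866 FPKM there and to 46.9 to 270 in the other 11 libraries. In that library Myl7, an atrial myosin light chain, reached 1049 FPKM. For the members, values without it are given beside the comparisons that use Slit2-IR hearts, though not for every member. Differences of genes from the other lists are given with this library included. In whole tissue, fewer cells of a type and less RNA per cell cannot be told apart.

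All 10 factors were expressed in each of the 12 libraries. Nkx2-5 was highest, at 59.6 ± 17.6 FPKM (SD, n = 12). It was followed by Gata4 at 27.5 ± 6.29, Mef2d at 25.3 ± 3.56 and Gata6 at 17.97 ± 3.54 FPKM. Hand2 at 11.9 ± 2.47, Irx4 at 10.1 ± 2.42 and Mef2a at 9.38 ± 1.57 FPKM lay close together. Tbx20 at 7.05 ± 1.35, Tbx5 at 5.19 ± 1.74 and Mef2c at 3.89 ± 0.670 FPKM were lowest. Their median was 10.999 FPKM, against 1.79 over the 983 tested genes that the files assign to a transcription factor family and 3.00 over all tested genes. Nkx2-5 ranked 18th among those 983, and 5 of the 10 were in the top 100. Mef2c ranked 284th.

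Neighbours in this order were compared within libraries on the log2(FPKM + 1) scale, by a two-sided exact sign-flip permutation test adjusted over 9 pairs. Nkx2-5 exceeded Gata4 in 12 of 12 libraries, by 1.07 ± 0.28 (SD), with an adjusted p of 0.00146. This is the smallest adjusted p obtained and was shared by Mef2d over Gata6 and Mef2a over Tbx20. Gata4 and Mef2d were not separated (adjusted p = 0.118, Gata4 higher in 7 of 12 libraries). Neither were Hand2 and Irx4 (0.0647) nor Irx4 and Mef2a (0.424). The remaining adjacent pairs, which are Gata6 over Hand2, Tbx20 over Tbx5 and Tbx5 over Mef2c, each had the same direction in 11 of 12 libraries, with adjusted p-values of 0.00293, 0.00264 and 0.00220. The level of Gata6 depends on the gene model: the files use 3194 exonic bases for it, whereas GENCODE M21 has 6508, and for Nkx2-5 the figures are 1525 and 1719. Lengths of the other 8 members were equal in both. The GENCODE M21 length joins the exons of all transcripts of a gene, 7 for Mef2d, 12 for Mef2a and 31 for Mef2c.

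Of the 10, Gata4, Nkx2-5, Tbx20, Mef2d and Hand2 had the highest mean level of their family (the plot of factor and paralog levels). Gata6 was below Gata4, Tbx5 below Tbx20, and Mef2a and Mef2c below Mef2d, while Irx4 was below Irx3, a gene outside the set. Mef2d held 65.6 ± 1.89% of the summed MEF2 FPKM (SD, n = 12), Mef2a 24.3 ± 2.01% and Mef2c 10.1 ± 1.097%. Their recovered reads, in the same order, totalled 38025, 34380 and 15411, on lengths of 5985, 14681 and 15715 bases. The shares therefore depend on the length given to each gene, and by reads Mef2d and Mef2a lay close together. Mef2b, the remaining MEF2 gene, was listed at 0 in every library. These shares varied little between groups: the group means for Mef2d lay between 63.6% and 66.9%. Hand2 held 99.95% of HAND FPKM and Nkx2-5 held 99.94% of the NKX2 genes. Gata4 and Gata6 held 88.9% of the GATA genes, with Gata2, a factor of blood and endothelial cells, next at 5.37 FPKM. Irx4, which marks ventricular muscle, held only 28.5% of the Iroquois FPKM, and Irx3, known in the ventricular conduction system, was higher at 16.6 FPKM. Tbx5 and Tbx20 held 48.4% of the T-box FPKM, with Tbx2 at 4.67 and Tbx3 at 3.78 FPKM.

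**Figure D1:**
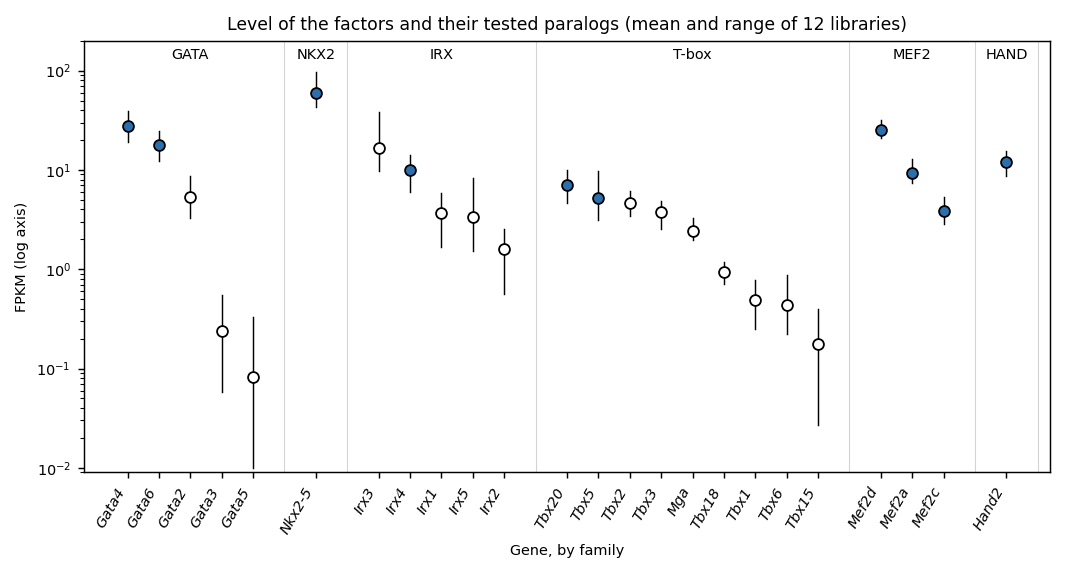
FPKM (log axis) of the 10 cardiac factors (filled) and of the tested genes of the same families (open), as the mean (point) and range (line) of 12 libraries. A line that meets the lower edge of the plot includes a library at or under that edge, as for Gata5. Nkx2-5, Hand2 and the MEF2 genes have no tested paralog outside the 10, and Irx3 lies above Irx4.

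IR was first compared with non-IR in C57BL/6J hearts. Of the 10 factors, Tbx20 was higher and Hand2 lower after IR at the unadjusted threshold, and the other 8 did not pass it. None passed the adjusted threshold of 0.05 in limma's test, which 0.459% of the tested genes did. The study's own lists, drawn from the same libraries at a P value under 0.05, hold Tbx20 and Gata4 upward and Hand2 downward. The 2 members at an unadjusted p under 0.05 compare with 8.96% of all tested genes. For the same 2 members the 3 IR and 3 non-IR hearts did not overlap, which held for 13.8% of tested genes. A share of 2 in 10 is not far from either background.

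Tbx20 encodes a T-box factor needed for the function of adult heart muscle. Its FPKM was 4.60, 5.24 and 6.41 in C57-non-IR hearts and 8.18, 7.44 and 7.19 in C57-IR hearts. In Slit2-non-IR hearts it was 7.64, 7.45 and 6.51, and in Slit2-IR hearts 9.91, 7.08 and 6.91. The C57-non-IR hearts were therefore the 3 lowest of the 12, and the other groups overlapped one another. In C57BL/6J hearts the mean was 5.42 ± 0.920 FPKM without and 7.60 ± 0.515 with IR (SD, n = 3 each), which did not pass the adjusted threshold. The difference in log2(FPKM + 1) was 0.43 ± 0.14 (SE; 95% interval 0.12 to 0.74; limma adjusted p = 0.306). It kept an unadjusted p under 0.05 in all 20 alternatives. An exact permutation test of 3 against 3 hearts gave p = 0.1, the smallest it can give.

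Hand2, whose product acts in the second heart field and in sympathetic neurons, was the only one of the 10 to go lower in every C57-IR heart. Its FPKM was 13.8, 14.7 and 12.9 in C57-non-IR hearts and 9.87, 9.10 and 10.1 in C57-IR hearts. Slit2-non-IR hearts held 11.2, 15.4 and 11.2 FPKM, and Slit2-IR hearts 10.2, 8.71 and 15.6. Both C57BL/6J groups were tight and apart, whereas each Slit2-Tg group contained 1 heart above 15 FPKM. In C57BL/6J hearts the difference was -0.47 ± 0.18 on the log2(FPKM + 1) scale (SE; 95% interval -0.86 to -0.07; limma adjusted p = 0.429; exact permutation p = 0.1). It no longer passed the unadjusted threshold when replicate 1 or 2 of the C57-non-IR hearts (-0.46 and -0.42) or replicate 2 of the C57-IR hearts (-0.43) was left out.

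The promoter of each of these genes is shown because they were the members with the smallest p in opposite directions. Each sequence is the 250 bases before the RefSeq start (GRCm38.p6), read 5′ to 3′ on the gene's strand, with matches to the searched motifs in capitals. The Tbx20 window is chr9:24774304-24774553 on the minus strand, and the Hand2 window is chr8:57320733-57320982 on the plus strand.
Tbx20: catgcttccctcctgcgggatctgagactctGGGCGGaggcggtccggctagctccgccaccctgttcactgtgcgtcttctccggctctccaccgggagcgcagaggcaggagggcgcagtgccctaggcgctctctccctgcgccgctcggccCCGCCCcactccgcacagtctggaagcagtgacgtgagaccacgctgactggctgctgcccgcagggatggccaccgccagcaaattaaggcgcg
Hand2: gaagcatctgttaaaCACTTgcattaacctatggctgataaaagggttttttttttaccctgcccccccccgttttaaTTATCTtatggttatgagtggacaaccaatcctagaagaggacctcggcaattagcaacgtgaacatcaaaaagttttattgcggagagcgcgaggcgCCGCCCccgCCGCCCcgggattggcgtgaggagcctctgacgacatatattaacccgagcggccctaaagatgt
Motifs were searched on both strands: a GATA site (AGATAA), a cAMP response element (TGACGTCA), a TATA box (TATAAA), a GC box (GGGCGG), an NKX2 site (AAGTG), a T-box half-site (GGTGTGA), an AP-1 site (TGANTCA), and the MEF2 site and CArG box by name. The Tbx20 window held a GC box at 2 positions, whose first bases lie 219 and 95 bases before the start. The Hand2 window held a GATA site 172 bases before the start, an NKX2 site at 235 bases, and GC boxes at 74 and 65 bases. All the capitals in the Hand2 window are on the opposite strand. Of 32851 promoter windows of this length, 32.7% held a GC box, 40.7% the NKX2 site and 9.99% the GATA site. GC content was 68.8% in the Tbx20 window and 49.2% in the Hand2 window, against a median of 52.4%. Of the 10 genes, 7 had a window in the table. The GATA site was matched in Hand2 only among these, and a match is a description of letters and not a binding site.

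Gata4 and Gata6, the zinc-finger factors, had higher means after IR in both genotypes. Gata4 was at 19.2, 21.6 and 22.9 FPKM in C57-non-IR hearts and at 35.7, 22.6 and 28.2 in C57-IR hearts. It was at 34.9, 23.8 and 23.6 in Slit2-non-IR hearts and at 38.8, 28.8 and 29.8 in Slit2-IR hearts. The IR and non-IR hearts overlapped in each genotype. The differences in log2(FPKM + 1) were 0.40 ± 0.19 (SE; 95% interval -0.01 to 0.82) in C57BL/6J and 0.25 ± 0.19 (-0.17 to 0.66) in Slit2-Tg hearts. On leaving out 1 library the first ran from 0.24 (without C57-IR replicate 1) to 0.56 (without C57-IR replicate 2). The unadjusted threshold was passed in the latter fit and in those without replicate 1 of either Slit2-Tg group. The second was lowest without Slit2-IR replicate 1, at 0.12, and highest when Slit2-non-IR replicate 1 was left out, at 0.43, where alone it passed the unadjusted threshold. Gata6 was at 12.4, 15.9 and 14.96 FPKM in C57-non-IR hearts, at 19.6, 19.7 and 14.8 in C57-IR hearts, at 16.7, 22.4 and 16.6 in Slit2-non-IR hearts, and at 21.4, 24.4 and 16.7 in Slit2-IR hearts. Its difference with IR was 0.30 ± 0.17 (-0.07 to 0.67) in C57BL/6J and 0.15 ± 0.17 (-0.22 to 0.53) in Slit2-Tg hearts. In C57BL/6J hearts it ran from 0.20 (without C57-non-IR replicate 1) to 0.43 (without C57-IR replicate 3, past the unadjusted threshold), and in Slit2-Tg hearts from 0.036 (without Slit2-IR replicate 2) to 0.30 (without Slit2-IR replicate 3).

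**Figure D2:**
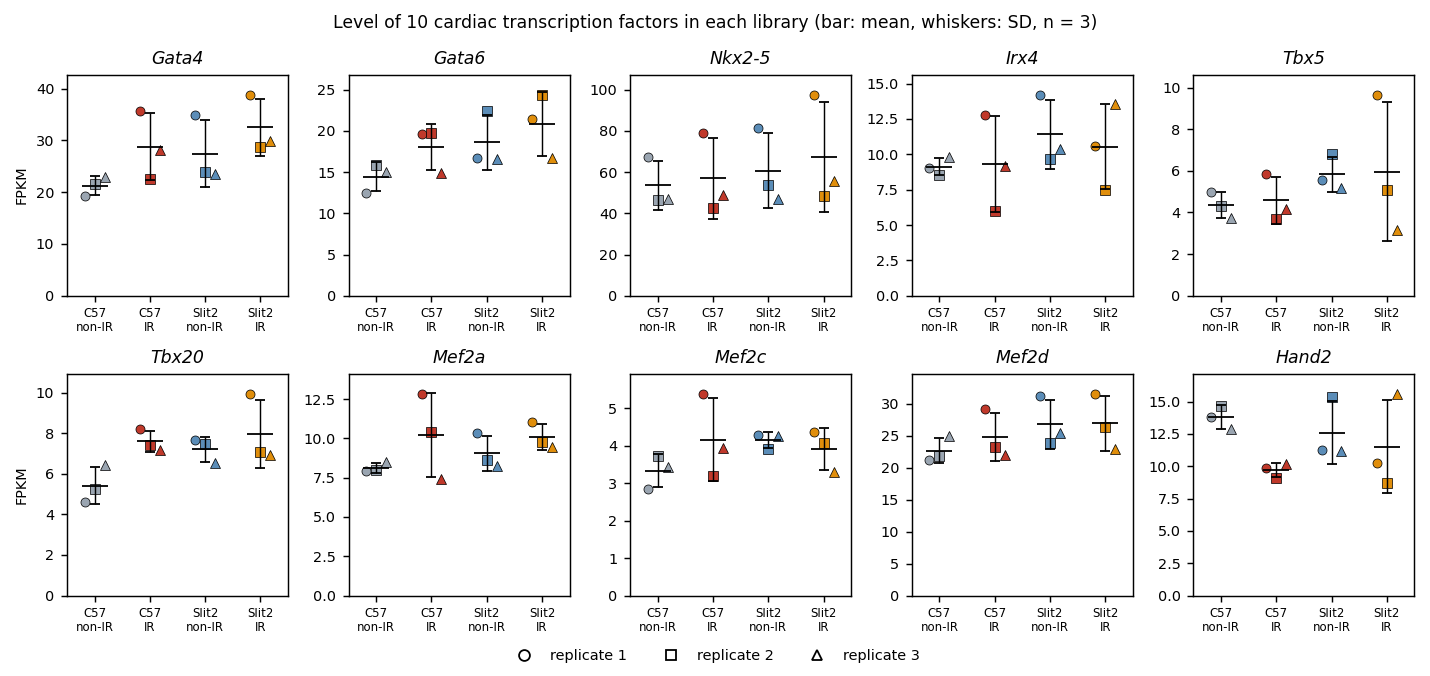
FPKM of each of the 10 factors in every library, by group, with the replicate number as the symbol; horizontal bars are group means and whiskers are SD (n = 3). C57-non-IR hearts are the 3 lowest of 12 for Tbx20, and Nkx2-5 is highest in replicate 1 of all 4 groups.

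The 3 MEF2 genes, which encode partners of calcium and stress signalling, did not pass either threshold in either genotype with all 12 libraries in the fit. With IR in C57BL/6J hearts their log2(FPKM + 1) differences were 0.27 ± 0.16 for Mef2a (SE; 95% interval -0.08 to 0.61), 0.24 ± 0.15 for Mef2c (-0.09 to 0.57) and 0.12 ± 0.15 for Mef2d (-0.20 to 0.44). Without C57-IR replicate 1 these fell to 0.10, 0.077 and 0.00093. Mef2a was at 0.46 without C57-IR replicate 3 and Mef2c at 0.38 without C57-IR replicate 2, both past the unadjusted threshold, and Mef2d reached 0.19 without C57-IR replicate 3. Mef2a spanned 7.42 to 12.8 FPKM, Mef2c 2.84 to 5.37 and Mef2d 21.2 to 31.5 over the 12 libraries. For Mef2a and Mef2c both the highest and 1 of the lower values came from C57-IR hearts. Mef2d varied least of the 10, with a coefficient of variation of 14.1%.

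For Nkx2-5, Tbx5 and Irx4 the IR differences were small and of uncertain sign. In C57BL/6J hearts they were 0.06 ± 0.31, 0.05 ± 0.28 and -0.02 ± 0.25 (SE, log2(FPKM + 1) scale), with 95% intervals of -0.62 to 0.73, -0.57 to 0.66 and -0.57 to 0.52. Changes of the size seen for Tbx20 lie inside each interval, so they were not detectable with 3 hearts a group.

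In Slit2-Tg hearts, no member differed between IR and non-IR at either threshold. The adjusted threshold was passed by 0.525% of tested genes and the unadjusted by 11.2%. Of the tested factor genes, 24.6% passed the unadjusted threshold. In 0 of the 10 were the groups apart, against 16.9% of tested genes. Differences in log2(FPKM + 1) ran from -0.15 for Hand2 to 0.25 for Gata4, and 6 of 10 were above 0. The same held for 51.6% of all tested genes and 37.7% of the tested factor genes. Tbx20 differed by 0.12 ± 0.14 (SE; 95% interval -0.19 to 0.43) and Hand2 by -0.15 ± 0.18 (-0.54 to 0.25). Without Slit2-IR replicate 1, differences ran from -0.44 for Tbx5 to 0.13 for Gata6, and 3 of 10 were above 0. Gata4 was then at 0.12, Tbx20 at -0.033, Nkx2-5 at -0.18 and Hand2 at -0.087, and no member passed the unadjusted threshold.

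Whether Slit2-Tg altered the response to IR was tested by the interaction. No member passed at the adjusted threshold (0% of tested genes did) or at the unadjusted (1.86%). The interaction of Tbx20 was -0.32 ± 0.20 on the log2 scale (SE; 95% interval -0.75 to 0.12), that of Mef2c -0.31 ± 0.21 (-0.78 to 0.16) and that of Hand2 0.32 ± 0.25 (-0.24 to 0.88). The response in C57BL/6J hearts is thus not shown to differ from that in Slit2-Tg hearts. Without Slit2-IR replicate 1, the library with atrial markers, the interaction of Tbx20 was -0.46 and passed the unadjusted threshold only.

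Averaged over both genotypes, Tbx20 and Gata4 had higher means and Hand2 a lower mean with IR, past the unadjusted threshold only. The differences in log2(FPKM + 1) were 0.27 ± 0.10 for Tbx20 (SE, limma adjusted p = 0.191), 0.32 ± 0.13 for Gata4 (adjusted p = 0.259) and -0.31 ± 0.13 for Hand2 (adjusted p = 0.259). These 3 of 10 compare with 15.9% of all tested genes, and with 33.7% of the 983 tested transcription factor genes, of which 108 passed the adjusted threshold. None of the 10 did, against 3.49% of tested genes. Without Slit2-IR replicate 1 only Tbx20 passed the unadjusted threshold, at 0.20, while Gata4 was at 0.26 and Hand2 at -0.28. With the replicate number as a block Gata6 also passed the unadjusted threshold. Without Slit2-IR replicate 3, where Hand2 was at 15.6 FPKM, Hand2 differed by -0.42 and passed the adjusted threshold (adjusted p = 0.0408). The median difference of the 10 was 0.09, against 0.00 over all tested genes and -0.04 over the tested factor genes.

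**Figure D3:**
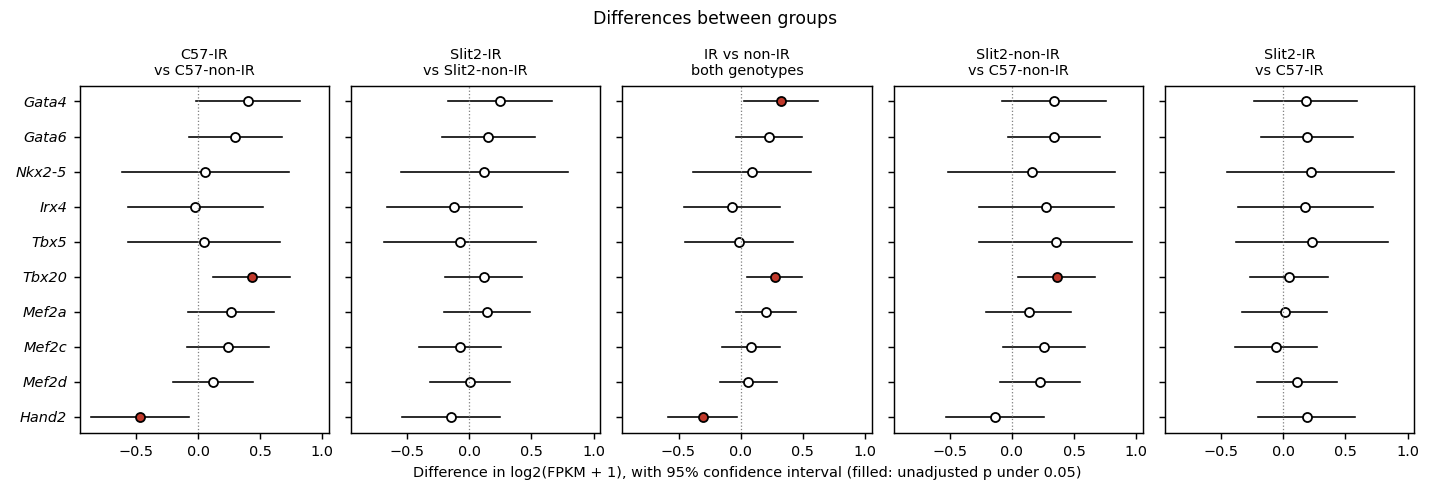
Difference in log2(FPKM + 1) with its 95% confidence interval for each factor in 5 comparisons, from limma with all 12 libraries in the fit; filled points have an unadjusted p under 0.05. Tbx20 and Hand2 are filled with opposite signs for C57-IR against C57-non-IR hearts, and most intervals include 0.

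Comparing genotypes without ischemia, 9 of the 10 factors had higher means with the transgene than without it, but only Tbx20 passed the unadjusted threshold. Of all tested genes 48.9% differed upward, and of the tested factor genes 56.1%. None passed the adjusted threshold (0.0394% of tested genes did), and 1 of 10 compares with 3.19% of tested genes at the unadjusted threshold. The groups did not overlap for 5 members, Gata4, Gata6, Tbx5, Tbx20 and Mef2c, each higher in all 3 Slit2-non-IR hearts, against 9.20% of tested genes. All 5 are also in the study's own list for this comparison, drawn at a P value under 0.05. That list comes from the same libraries, so it is not independent support. Because the members were chosen with earlier results of these data known, their share is not an independent result. The gaps were narrow: the highest C57-non-IR and lowest Slit2-non-IR heart were at 22.9 and 23.6 FPKM for Gata4, 15.9 and 16.6 for Gata6, 4.998 and 5.19 for Tbx5, 6.41 and 6.51 for Tbx20, and 3.71 and 3.91 for Mef2c. Tbx20 differed by 0.36 ± 0.14 in log2(FPKM + 1) (SE; 95% interval 0.05 to 0.67; limma adjusted p = 0.9995). It did not pass the unadjusted threshold without replicate 1 or 2 of the C57-non-IR hearts (0.27 and 0.35). The same held without replicate 1 or 2 of the Slit2-non-IR hearts (0.32 and 0.34). The 95% intervals of the other 4 included 0, from -0.03 to 0.71 for Gata6 to -0.26 to 0.96 for Tbx5. This comparison and that of IR in C57BL/6J hearts share the 3 C57-non-IR hearts. The median difference of the 10 was 0.27, against 0.00 over all tested genes.

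Between the IR groups, no member differed by genotype. The adjusted threshold was passed by 0.0459% of tested genes and the unadjusted by 3.16%. Groups were apart for 0 members, against 6.47% of tested genes. Differences in log2(FPKM + 1) ranged from -0.06 for Mef2c to 0.23 for Tbx5. Tbx5, the factor of the limb and heart that is also high in atria, was at 9.66, 5.08 and 3.16 FPKM in Slit2-IR hearts and at 5.87, 3.71 and 4.17 in C57-IR hearts. Its highest value came from replicate 1, the library with atrial markers, and without that library the difference was -0.13. The 10 members then ranged from -0.13 for Tbx5 to 0.25 for Hand2, with 4 above 0 in place of 9. With all libraries, 49.9% of all tested genes and 48.2% of the tested factor genes were above 0. In C57-non-IR hearts Tbx5 was at 4.998, 4.33 and 3.76 FPKM, and in Slit2-non-IR hearts at 5.54, 6.80 and 5.19.

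Nkx2-5 stood apart by its level in the libraries numbered 1. Nkx2-5 was at 67.2, 79.0, 81.2 and 97.6 FPKM in the libraries numbered 1 and at 42.6 to 55.9 FPKM in the other 8, so that replicate 1 was highest in all 4 groups. The summed cardiomyocyte markers showed the same split, with 14860 to 16872 FPKM in the libraries numbered 1 and 10972 to 13368 in the others. Every other member overlapped between these libraries. Replicate 1 was highest in 3 of 4 groups for Gata4, Tbx5, Tbx20, Mef2a, Mef2c and Mef2d, and in 0 for Gata6 and Hand2. In C57-non-IR replicate 1, Gata4, Gata6, Tbx20, Mef2a, Mef2c and Mef2d had their lowest value of the group, while the cardiomyocyte markers summed to 15716 FPKM. Divided by those markers, Nkx2-5 varied 1.61-fold over the libraries, against 2.29-fold undivided, and its coefficient of variation was 16.2% in place of 29.5%. That of Gata4 was 15.5% in place of 22.9%, whereas those of Hand2 (29.2% and 20.7%) and Gata6 (24.3% and 19.7%) were larger after the division. This division was added after the values were seen, and the part of muscle content or of a shared processing day in these levels was not tested.

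By library, 9 of the 10 members lay above their own mean in C57-IR replicate 1 and in Slit2-IR replicate 1, with Hand2 the exception in both. In Slit2-non-IR replicate 1 it was 8 of 10. The median deviation in log2(FPKM + 1) was 0.28, 0.29 and 0.13 in these libraries. In the C57-non-IR libraries it was -0.22, -0.19 and -0.12. Over all tested genes the median deviation was within 0.01 of 0 in every library. Hand2 was the highest member, relative to its own mean, in all 3 C57-non-IR libraries.

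**Figure D4:**
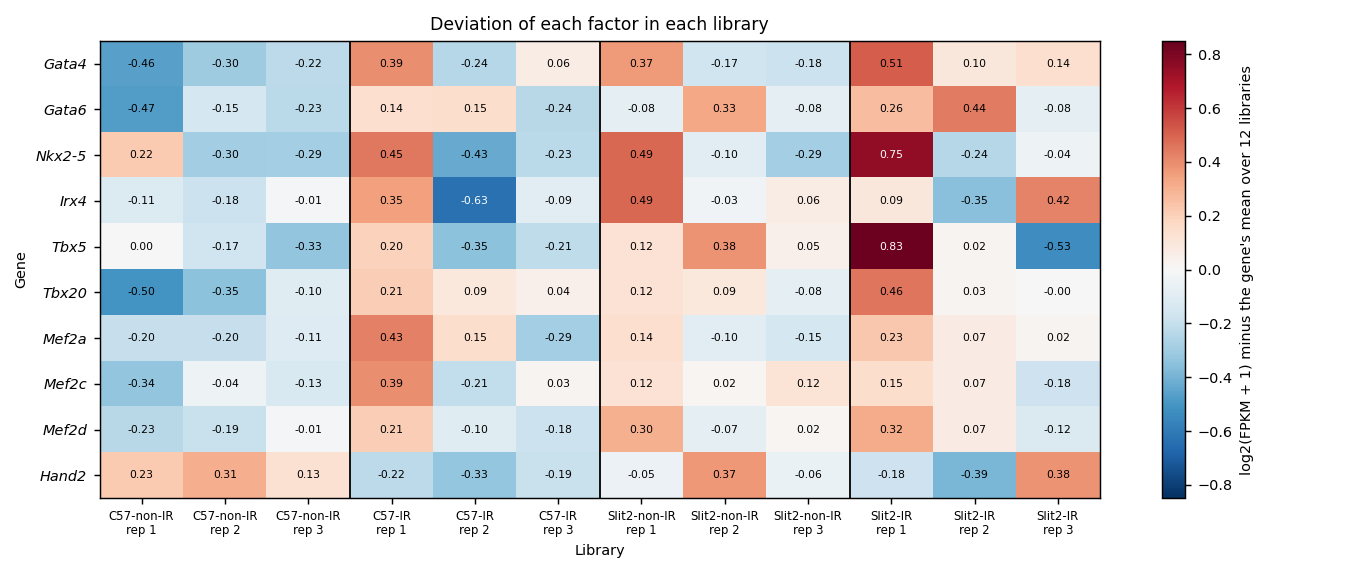
Deviation of log2(FPKM + 1) from each gene's mean over 12 libraries, by factor (rows) and library (columns, grouped), with the value in each cell. C57-non-IR columns are mostly below 0 except for Hand2, and C57-IR replicate 1 and Slit2-IR replicate 1 are above 0 for 9 of 10 factors.

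The genes with the profile most like that of Tbx20 over the 12 libraries, by the root mean square difference of standardized values, were Pitrm1 (0.35), Arih1 (0.40) and Kank1 (0.42), against a median of 1.35 over all genes tested. Among the members Gata4 was nearest, in 34th place, and Hand2 was in place 13635. For Hand2 the nearest were D2Bwg1423e (0.40), Capn10 (0.43) and Vangl1 (0.45). These likenesses are descriptions over libraries that share depth and tissue content.

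Some values rest on reads that may belong to a neighbour, because the use of strand in counting is not given in the sources used here. Hand2 (ENSMUSG00000038193, chromosome 8, 57320983 to 57324633) shares 461 exonic bases, 19.6% of its exons, with the antisense gene AV026068 (Hand2os1), which had a mean of 835 recovered reads against 586 for Hand2. Mef2d (chromosome 3, 88142372 to 88172086) shares 8.87% of its exonic bases with 1700113A16Rik, Mef2a (chromosome 7, 67231163 to 67372858) 2.06% with Lysmd4, and Gata6 1.43% with 1010001N08Rik. Tbx20 (ENSMUSG00000031965, chromosome 9, 24718138 to 24774303) and the other members share none. The mean of 6.5 reads on 1700113A16Rik is small beside the 3169 on Mef2d. Of the 20 nearest genes that do not overlap, 15 were under 1 FPKM on average, among them Neil2 beside Gata4 at 0.176. The highest was Gm43050, 748 bases from Tbx5, at 4.37 FPKM against 5.19 for Tbx5. Gm34030, 7059 bases from Hand2, was at 2.92 FPKM and Rbbp8, beside Gata6, at 1.40.

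Other genes of the network were taken from fixed lists. Of 34 other cardiac factors 29 were tested, and in the comparison of IR with non-IR over both genotypes 1 passed the adjusted threshold, upward, and 0 downward, where 3.49% of all tested genes passed. That gene was Srf, the MADS-box factor that drives cytoskeletal and sarcomere genes. It rose from 29.3 ± 3.51 to 41.0 ± 5.13 FPKM (SD, n = 6 each; difference in log2(FPKM + 1) 0.47 ± 0.10 SE; limma adjusted p = 0.0231). In both genotypes the IR and non-IR hearts did not overlap: 32.5 to 41.5 against 28.6 to 30.2 FPKM in C57BL/6J and 39.7 to 48.2 against 25.4 to 35.3 in Slit2-Tg hearts. Groups were apart for 13.8% of tested genes in C57BL/6J and 16.9% in Slit2-Tg hearts. The adjusted p of Srf over the alternatives was 0.00941 to 0.0665. It missed the threshold in 9 of the 12 fits that left out a library, all but those without C57-IR replicate 1, Slit2-non-IR replicate 1 or Slit2-IR replicate 3, with differences of 0.43 to 0.54 over the 12. The median difference of this list was -0.09, against 0.00 over all tested genes. Nr2f2, a factor of atrial and venous identity, had the smallest p downward (-0.28 ± 0.08 SE, adjusted p = 0.0733). Isl1 and Mef2b were listed at 0 in all libraries.

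Tbx2, the T-box repressor of chamber genes, had the smallest p downward in C57BL/6J hearts. Its FPKM was 5.31 to 6.14 in C57-non-IR and 3.43 to 4.11 in C57-IR hearts (difference in log2(FPKM + 1) -0.50 ± 0.15 SE, limma adjusted p = 0.263). It also had the smallest p downward in Slit2-non-IR against C57-non-IR hearts (-0.36 ± 0.15) and upward in the interaction (0.57 ± 0.22, adjusted p = 0.9998). Nfatc3 after IR in Slit2-Tg hearts (-0.27), Meis2 in Slit2-non-IR against C57-non-IR hearts (0.30), and Irx2 (0.60) and Hey2 (-0.23) in Slit2-IR against C57-IR hearts were the leading genes elsewhere. Prox1 had the smallest interaction p downward (-0.59). None of these passed the adjusted threshold.

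Of 22 cofactors and repressors, all tested, 1 passed in the same comparison (3.49% of all tested genes), upward, and 0 downward. Hopx, a homeodomain protein that restrains SRF, rose from 86.4 ± 9.42 to 113 ± 11.5 FPKM (SD, n = 6 each; 0.38 ± 0.09 SE in log2(FPKM + 1); limma adjusted p = 0.0424). Over the alternatives its adjusted p was 0.0205 to 0.115, and it missed the threshold in 9 of 12 fits that left out a library, all but those without replicate 3 of the C57-IR, Slit2-non-IR or Slit2-IR hearts. Mkl2, a coactivator of SRF, had the smallest p downward (-0.32 ± 0.10, adjusted p = 0.102) and also led downward in C57BL/6J hearts (-0.41). The median difference of this list was 0.08. Ppargc1a, the coactivator of mitochondrial genes, was at 7.86 to 9.17 FPKM in Slit2-IR and 12.9 to 15.9 in C57-IR hearts (-0.67 ± 0.19 SE, adjusted p = 0.9996), with an interaction of -0.77 ± 0.26 (adjusted p = 0.9998). Zfpm2, which encodes the GATA4 partner FOG2, was the leading gene upward in Slit2-non-IR against C57-non-IR hearts (0.33), and Zfpm1, which encodes FOG1, in Slit2-IR against C57-IR hearts (0.33) and in the interaction (0.34), none of them past the unadjusted threshold.

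Of 28 cardiac target genes, all tested, 2 passed in the same comparison (3.49% of all tested genes), upward, and 0 downward. Xirp1, an actin-binding protein of the intercalated disc, rose from 51.1 ± 9.23 to 142 ± 67.7 FPKM (SD, n = 6 each; 1.35 ± 0.28 SE in log2(FPKM + 1); limma adjusted p = 0.0226), and all IR hearts (77.8 to 234 FPKM) exceeded all non-IR hearts (36.7 to 60.6). The share of all tested genes split in this way is not given here. Gja1, which encodes the gap junction protein connexin 43, rose from 25.5 ± 6.44 to 39.99 ± 7.85 FPKM (0.64 ± 0.15 SE; adjusted p = 0.0382). Over the alternatives the adjusted p was 0.00844 to 0.0678 for Xirp1 and 0.00864 to 0.0969 for Gja1. Of the 12 fits that left out a library, Xirp1 missed the threshold in 6 (without C57-non-IR replicate 1 or 2, any of the Slit2-non-IR hearts, or Slit2-IR replicate 1) and Gja1 in 10, all but those without C57-IR replicate 1 or 3. Gja5, encoding connexin 40 of the conduction system and atria, had the smallest p downward (-0.31 ± 0.10, adjusted p = 0.131). The list's median difference was 0.13, with 23 of 28 above 0, against 51.3% of all tested genes. In single genotypes Gja1 led upward in C57BL/6J hearts (0.87 ± 0.21 SE, adjusted p = 0.112) and Xirp1 in Slit2-Tg hearts (1.21 ± 0.39, adjusted p = 0.233). In the other 5 comparisons 0 genes of the 3 lists passed by limma, while 9, 5, 2, 2 and 1 of the 29 other cardiac factors had an unadjusted p under 0.05, in the order IR in C57BL/6J, IR in Slit2-Tg, Slit2-non-IR against C57-non-IR, Slit2-IR against C57-IR, and interaction. The counts were 2, 5, 0, 1 and 1 of 22 for cofactors and 4, 2, 1, 0 and 0 of 28 for target genes. Over all tested genes the shares were 8.96%, 11.2%, 3.19%, 3.16% and 1.86% in that order. Myl3 (-0.22) and Tnni3 (-0.22) were the leading target genes downward, and Gja1 (0.50) and Hcn4 (0.70) upward, in the genotype comparisons without and with IR. Hcn4 spanned 1.83 to 7.42 FPKM in Slit2-IR hearts and 1.21 to 3.03 in C57-IR hearts, so the groups overlapped. In the interaction Actc1, the cardiac actin gene, led upward (0.35) and Gja1 downward (-0.47), neither past the unadjusted threshold.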

How the data were processed

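RNA was measured in 12 heart libraries. The authors deposited FPKM values, with Ensembl identifiers, gene lengths and GRCm38 coordinates. The submitters' processing notes name HISAT2 and mm10. The counting tool and annotation release are not given in the sources used here. FPKM times gene length took only whole-read steps within each library (100% of values, tolerance 0.01 reads), and the steps followed median-of-ratios size factors, so the libraries had been normalized together. No per-library column was left unused.

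Groups were compared with limma (variance trend) on log2(FPKM + 1), with 4 groups in 1 fit. Adjustment was by Benjamini-Hochberg over 15240 tested genes, those with 10 or more reads, at median depth, in 3 or more libraries and 15 or more summed over libraries. The pseudocount of 1 understates changes of low genes. Recovered reads were used for depth and for a limma-voom alternative. The members and lists were chosen with earlier results of these data known. Named genes were the members, the listed genes past the adjusted threshold, the smallest p per list, direction and comparison, the 3 profiles nearest to each of the members with the smallest p, overlapping and neighbouring genes, and Slit2. The design allowed for a count test had counts been deposited, which did not apply.

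Same-numbered libraries were checked for pairing by the correlation of their deviations from group means. All 3 pairs exceeded 0.1 for Slit2-IR against Slit2-non-IR (0.143 to 0.295) and Slit2-IR against C57-IR hearts (0.154 to 0.362). The lowest pair was 0.083 for C57-IR against C57-non-IR and 0.038 for Slit2-non-IR against C57-non-IR hearts. No label gives a shared day or litter, so any pairing comes from the correlations alone. The extraction protocol in the labels describes the samples of a group as independent. The fitting steps were tried on simulated reads of independent libraries, with planted changes larger than those of the members. That trial does not bear on differences as small as those reported for the members. Exons were taken from GENCODE M21 and promoters from RefSeq (GRCm38.p6). Software was limma 3.58.1 in R 4.3.3, and pandas 2.3.3, scipy 1.17.1 and matplotlib 3.10.9 in Python 3.11.15.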

Additional observations from a re-analysis of the deposited data

How the results depend on the processing

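The order of the members by level was the same under all 14 alternatives, which changed the pseudocount, the summary or the libraries used. None changed the gene lengths, on which the order also rests, such as 3194 or 6508 bases for Gata6. Within single groups the order differed in places. Mef2d was above Gata4 in C57-non-IR hearts, and Mef2a was above Hand2 and Irx4 in C57-IR hearts. The differences followed for single members, 53 in number, covered the interaction only for Tbx20, Hand2 and Mef2c, where its p was smallest. Of the 53, 22 changed sign under at least 1 alternative. In none of these sign changes was an unadjusted p under 0.05 in either fit. The interactions not followed also changed sign under at least 1 alternative for Nkx2-5, Irx4, Gata4, Tbx5, Mef2a and Mef2d, and not for Gata6. With TMM scaling the difference of Mef2d for Slit2-IR against Slit2-non-IR hearts was -0.013. The other sign changes among the differences followed came from leaving out 1 library. The ranges on leaving out each library in turn, on the log2(FPKM + 1) scale, were as follows. For C57-IR against C57-non-IR hearts they were -0.20 to 0.24 for Nkx2-5, -0.26 to 0.23 for Irx4 and -0.11 to 0.16 for Tbx5. For Slit2-IR against Slit2-non-IR hearts they were -0.18 to 0.35 for Nkx2-5, -0.11 to 0.11 for Mef2d, -0.37 to 0.017 for Hand2, -0.31 to 0.082 for Irx4, -0.033 to 0.20 for Tbx20, -0.44 to 0.24 for Tbx5 and -0.14 to 0.021 for Mef2c. For Slit2-non-IR against C57-non-IR hearts it was -0.070 to 0.33 for Nkx2-5. For Slit2-IR against C57-IR hearts they were -0.076 to 0.48 for Nkx2-5, -0.0010 to 0.23 for Mef2d, -0.035 to 0.35 for Hand2, -0.075 to 0.41 for Irx4, -0.18 to 0.17 for Mef2a, -0.10 to 0.13 for Tbx20, -0.13 to 0.55 for Tbx5 and -0.20 to 0.11 for Mef2c. For IR against non-IR over both genotypes they were -0.060 to 0.20 for Nkx2-5, -0.19 to 0.054 for Irx4 and -0.20 to 0.14 for Tbx5. The cause was not tested.

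The number of members at an unadjusted p under 0.05 ranged from 1 to 4 for IR in C57BL/6J hearts on leaving out 1 library (1 without C57-non-IR replicate 1 or 2, and 4 without C57-IR replicate 3), from 0 to 1 for IR in Slit2-Tg hearts (1 without Slit2-non-IR replicate 1 or Slit2-IR replicate 3), from 0 to 1 for Slit2-non-IR against C57-non-IR hearts (0 without replicate 1 or 2 of either group), from 0 to 1 for Slit2-IR against C57-IR hearts (Tbx5 without Slit2-IR replicate 3), from 1 to 4 for IR over both genotypes (1 without C57-non-IR replicate 1 or 2 or Slit2-IR replicate 1, and 4 without replicate 3 of the C57-IR or Slit2-IR hearts) and from 0 to 1 for the interaction (Mef2c without C57-IR replicate 2, Tbx20 without Slit2-IR replicate 1). The number at an adjusted p under 0.05 over both genotypes ranged from 0 to 1. A fit of only the groups compared gave 2 for Slit2-non-IR against C57-non-IR hearts (Tbx20 and Tbx5). Of the genes in the 3 lists, 4 passed the adjusted threshold, 0 with no filter beyond 1 read, 0 with only the groups compared (where the comparison over both genotypes has no such fit), and 0 to 5 on leaving out 1 library.

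With the replicate number as a block, 4 members had an unadjusted p under 0.05 for IR in C57BL/6J hearts (Gata4 and Gata6 in addition) and 2 for Slit2-non-IR against C57-non-IR hearts (Gata6 in addition). Correlations of same-numbered libraries ran from 0.083 to 0.295 in the former comparison and from 0.038 to 0.324 in the latter. Whether those libraries were paired was not tested further. Over both genotypes the block gave 4 in place of 3 (Gata6 in addition). In Slit2-IR against Slit2-non-IR or C57-IR hearts the block changed no member's call, and under it 0 members passed the adjusted threshold anywhere. limma-voom on the recovered reads also passed 0 members at that threshold in all 6 comparisons. With 3 hearts a group, the 95% intervals of most members include differences of the size seen for Tbx20.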
